A study of Homo sapiens with 7 samples.

Results

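The autosomal genes for the protein parts of the ribosome were read for when in S phase their DNA is copied. The cytosolic members are genes named RPL or RPS with a number, and the mitochondrial members are genes named MRPL or MRPS with a number. Names of processed pseudogenes and of the ribosomal S6 kinases were left out. By this rule, 135 of 26924 named autosomal genes on the arrays were members, 62 cytosolic and 73 mitochondrial. The 7 arrays set newly made DNA of early S phase, in the Cy3 channel, against that of late S phase, in the Cy5 channel, with no dye swap. K562, a chronic myeloid leukaemia line that grows in suspension, was on 3 arrays. They were a larger-design array after a new cell sorting method, another after the old method, and an array labelled 44k whose sorting method the labels do not give. U2OS, an adherent osteosarcoma line, was on 4 arrays, 2 handled manually and 2 with automation. All groups shared a pulse of bromodeoxyuridine at 50 µM for 2 h, a sort of 80000 cells into the 2 fractions, recovery of the labelled DNA by antibody, and amplification of the whole genome. The labels do not say that arrays of a group came from separate cultures, so p-values measure the spread between arrays, which may be technical.

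A ribosome has a small and a large subunit, each an assembly of ribosomal RNA and proteins. The cytosolic ribosome reads messages copied from the nuclear genome, and its proteins are made in every growing cell. The mitochondrial ribosome reads the few messages of the mitochondrial genome, which encode parts of the respiratory chain, and its own proteins are encoded in the nucleus and imported. Genes that are active in most cell types usually lie in DNA that is copied early in S phase.

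Values are log2(early/late) of the processed probe signals, centred on the median probe of each array, and averaged over the probes of a gene. A positive value means earlier than the median probe. Of the 135 members, 131 had a probe on the larger design and 129 on the array labelled 44k, and 130 (58 cytosolic and 72 mitochondrial) were measured on all 6 arrays of the larger design and entered the tests, as did 23722 named genes in all. RPL13A, RPL30 and MRPL57 were among the members with probes only on the array labelled 44k, where they read -0.88, 0.26 and 0.81. RPL8 was not tested because the scanner software marked its only probe on the old-sorting array. A single probe stood for 91 of the 130 tested members, 84.5% of the cytosolic and 58.3% of the mitochondrial genes, against 36.0% of all tested genes. The 100-kb window that holds each gene, with a median of 8 probes, was therefore read beside the gene, on the 6 arrays of the larger design.

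The arrays differed in brightness. Above the negative controls, the median probe read 30.5 to 196 units in the early channel and 38.5 to 214 units in the late channel, and the share of probes well above background in the late channel ran from 8.83% on the array labelled 44k to 96.6% on automated U2OS array 2. DPPA2, the late control locus named in the protocols, was negative on 7 of 7 arrays, and BMP1, the early control, was positive on 6 of 7, with -3.32 on the array labelled 44k. CDKN2A, CDKN2B and MTAP lie in a region K562 is known to have lost, and 2 of these 3 names had probes on the arrays. The summed signal of these probes read -3.47 to -2.16 log2 units against the array median in K562 and -1.08 to -0.19 in U2OS. This was in the direction of the labels. No slide held both lines or both handling methods, so slide cannot be told apart from either. Both manual U2OS arrays were on the same slide, while each automated array had its own. The spread between manual arrays thus leaves out any difference between slides.

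Most members called between the lines rested on few probes, and the probes of 5 of these 9 genes are given here, as deposited, with positions on hg19, to show how little sequence a value can rest on. Those of RPS20, RPL31, MRPS5 and MRPS31 are not shown. The strand of each probe and its place in the gene's exons or introns were not given in the sources used here. RPL37 and MRPS22 were each read by 1 probe, so their whole gene value comes from the stretch shown. RPL39L and MRPL19 were each read by 2 probes on the larger design, and MRPL39 by 3.
RPL37, chr5:40833765-40833824: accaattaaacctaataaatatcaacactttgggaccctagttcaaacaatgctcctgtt
MRPS22, chr3:139075748-139075807: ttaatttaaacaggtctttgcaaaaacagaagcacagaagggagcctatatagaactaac
RPL39L, chr3:186841318-186841377: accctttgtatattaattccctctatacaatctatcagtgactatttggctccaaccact
RPL39L, chr3:186849746-186849805: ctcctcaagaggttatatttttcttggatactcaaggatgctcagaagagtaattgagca
MRPL19, chr2:75874757-75874816: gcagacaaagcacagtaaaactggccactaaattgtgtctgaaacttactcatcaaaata
MRPL19, chr2:75883273-75883332: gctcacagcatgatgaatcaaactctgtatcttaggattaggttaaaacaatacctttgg
MRPL39, chr21:26961569-26961628: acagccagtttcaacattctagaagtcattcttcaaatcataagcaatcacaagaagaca
MRPL39, chr21:26965043-26965102: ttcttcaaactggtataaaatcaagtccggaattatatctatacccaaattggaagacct
MRPL39, chr21:26975925-26975984: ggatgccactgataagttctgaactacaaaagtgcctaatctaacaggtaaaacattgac

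Promoter sequence was read as a feature that the choice by name did not use. RefSeq promoters of GRCh38.p14, from 250 bases before to 50 after the start, were matched by symbol for 110 of the 135 members. The letters CTTTC on the sense strand, from 15 bases before to 20 after the start, a run like the pyrimidine tract with which ribosomal protein messages begin, were present in 21 of 46 cytosolic promoters (45.7%), 3 of 64 mitochondrial promoters (4.69%) and 4.72% of all 27305 promoters. The letters CCGGAAG on either strand, the core bound by ETS family factors, were in 34.8% of cytosolic, 39.1% of mitochondrial and 10.7% of all promoters. AAGATGGC on either strand, a YY1-like core, was in 10.9%, 28.1% and 3.03%. Both kinds of promoter held the ETS core at a larger share than all promoters, and the pyrimidine run was at a larger share only in the cytosolic ones. None of the 3 runs of letters was in most promoters of either kind. The median count of the pair CG, which CCGGAAG contains, was 23 in cytosolic, 23.5 in mitochondrial and 14 in all promoters. The part of this difference in the shares was not tested. The stretches from 100 bases before to 20 after the start are shown for the cytosolic RPL31 and the mitochondrial MRPS22, both on the plus strand and chosen because they hold matches, which are in capitals. RPL31 holds CCGGAAG and CTTTC, and MRPS22 holds CCGGAAG on the sense strand and its reverse complement at 2 places.
RPL31, chr2:101002189-101002308: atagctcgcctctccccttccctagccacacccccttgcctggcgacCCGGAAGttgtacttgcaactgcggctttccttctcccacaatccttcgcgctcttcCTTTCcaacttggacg
MRPS22, chr3:139343894-139344013: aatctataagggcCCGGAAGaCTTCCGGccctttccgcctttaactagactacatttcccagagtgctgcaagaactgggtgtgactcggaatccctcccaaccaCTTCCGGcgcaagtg

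Most members lay in early DNA in both lines, and the share was larger among cytosolic than among mitochondrial genes. The median cytosolic gene read 1.001 in K562 and 1.03 in U2OS, and the median mitochondrial gene 0.79 and 0.76, against 0.66 and 0.81 over all tested genes. Both line means were above 0 for 49 of 58 cytosolic genes (84.5%) and 51 of 72 mitochondrial genes (70.8%), against 59.9% of all genes. Both were below 0 for 3 cytosolic and 7 mitochondrial genes, against 20.9% of all genes. By compartment and subunit, as named, both line means were above 0 for 29 of 32 large and 20 of 26 small cytosolic subunit genes, and for 30 of 44 large and 21 of 28 small mitochondrial subunit genes. In a limma fit over all 7 arrays, with p-values adjusted over all tested genes, 35 cytosolic and 36 mitochondrial members were called early in K562 (adjusted p under 0.05), against a background of 43.8% of all genes, and 0 and 5 were called late, against 19.9%. In U2OS, 42 and 42 were called early, against 54.6% of all genes, and 3 and 3 late, against 19.7%. Calls in both lines as early covered 26 cytosolic and 28 mitochondrial genes, against 35.3% of all genes. Without the new-sorting K562 array, 36 instead of 71 members were called early in K562.

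On single arrays the cytosolic genes stayed above all genes by their median. Their median on the 7 arrays ran from 0.73 on the old-sorting K562 array to 1.36 on the new-sorting array, and lay above the median of all genes on each array, by 0.13 to 0.48. The mean excess was 0.31 ± 0.17 (SD, n = 3) for K562 and 0.30 ± 0.12 (SD, n = 4) for U2OS. The mitochondrial median ran from 0.53 to 1.07, and its excess over all genes was 0.16 ± 0.20 (SD, n = 3) for K562 and 0.06 ± 0.13 (SD, n = 4) for U2OS, with a median below that of all genes on old-sorting K562 and automated U2OS array 1. The excess of the mitochondrial genes was thus within the spread between arrays. On the array labelled 44k the mitochondrial median, 0.77, lay above the cytosolic median, 0.74.

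**Figure D1:**
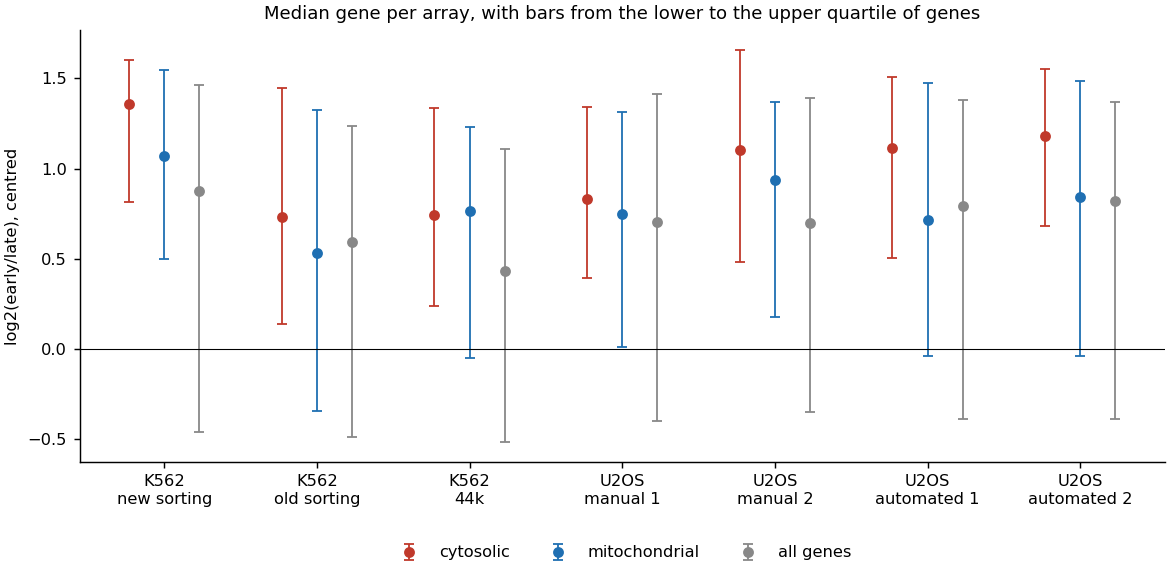
Median log2(early/late) of cytosolic members (red), mitochondrial members (blue) and all tested genes (grey) on each of the 7 arrays, with bars from the lower to the upper quartile of genes. The red point lies above the grey point on every array, while the blue point lies below it on old-sorting K562 and automated U2OS array 1.

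The cytosolic genes spanned a narrower range. The SD of the gene means over the cytosolic members was 0.69 in K562 and 0.66 in U2OS, over the mitochondrial members 0.97 and 0.81, and over all genes 1.28 and 1.19. Across genes, Pearson's r between the K562 and the U2OS mean was 0.05 for the cytosolic, 0.63 for the mitochondrial and 0.68 for all genes. These values describe genes within a shared set of arrays. A narrow range and 1 probe per gene move with the low r of the cytosolic genes, and their part in it was not tested. Median probe GC was 37.0% for cytosolic and 36.7% for mitochondrial members and for all genes. In K562 no array had the late channel well above background for 22 of 58 cytosolic (37.9%) and 12 of 72 mitochondrial genes (16.7%). This held for 13.6% of all genes in K562, and for 0 members in U2OS. The K562 values of those members rest on a late signal near background, so their size is uncertain. For a signal at background the scanner software set a substitute value, which makes the ratio a bound. Late substitutes were used for 17.4% of cytosolic member probes on the new-sorting, 5.80% on the old-sorting and 70.1% on the 44k K562 array.

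Among the cytosolic genes the highest levels were read at RPS15A, RPL39L, RPS25 and RPL26. RPS15A, of the small subunit (chr16:18794446-18797302), read 1.80 on the new-sorting, 2.23 on the old-sorting and 1.72 on the 44k K562 array, and 2.71 and 1.98 with manual and 1.28 and 0.91 with automated handling. All 7 arrays placed it early, at 1.92 ± 0.27 (SD, n = 3) for K562 and 1.72 ± 0.79 (SD, n = 4) for U2OS. RPL26, a large subunit protein near the exit of the nascent chain (chr17:8283340-8283399), read 1.51 ± 0.46 (SD, n = 3) and 1.71 ± 0.43 (SD, n = 4). RPS25, of the small subunit (chr11:118887988-118888047), read 1.97 ± 0.34 (SD, n = 3) and 1.27 ± 0.33 (SD, n = 4). Its K562 value is uncertain in size because its late channel was never well above background there. The SDs of RPS15A and RPL26 overlap in both lines, so their order is not fixed by these arrays.

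By the mean of both line means, the lowest cytosolic genes were RPS12, RPS14, RPL34 and RPS7. RPS12, of the small subunit (chr6:133138561-133138620), read -0.70 ± 0.55 (SD, n = 3) for K562 and -0.85 ± 0.79 (SD, n = 4) for U2OS, with 6 of 7 arrays below 0 and 0.03 on manual array 2. Its window was below 0 in both lines too, at -0.14 and -0.77. RPS14, the gene whose loss underlies the anaemia of the 5q- syndrome (chr5:149827868-149827927), read -0.33 ± 0.54 (SD, n = 3) and -0.19 ± 0.75 (SD, n = 4) by its only probe. Its window was early, at 1.12 in K562 and 0.95 in U2OS, so the gene and its surroundings had opposite signs. RPL34 read -0.14 ± 0.88 (SD, n = 3) and -0.33 ± 1.10 (SD, n = 4), and RPS7 0.98 ± 0.47 (SD, n = 3) for K562 and -0.53 ± 0.77 (SD, n = 4) for U2OS.

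The mitochondrial genes reached both further up and further down. MRPL51, of the large subunit (chr12:6601608-6601663), read 1.87, 0.99 and 2.48 on the K562 arrays with new sorting, old sorting and the 44k format, and 2.61 and 2.37 with manual and 1.82 and 2.25 with automated handling. It was early on all 7 arrays, above 99.0% of all tested genes by its mean level. MRPL9 (chr1:151732329-151732375) read 1.92 ± 0.44 (SD, n = 3) and 1.85 ± 0.33 (SD, n = 4). MRPL37 (chr1:54673099-54683812) read 2.08 ± 0.38 (SD, n = 3) and 1.66 ± 0.40 (SD, n = 4), and MRPS10 (chr6:42182092-42182151) 1.59 ± 0.73 (SD, n = 2) and 1.94 ± 0.47 (SD, n = 4). The intervals of mean ± SD of these 4 genes overlapped in U2OS, and their order is not settled there.

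At the late end, MRPL13, a large subunit protein read by 5 probes (chr8:121408264-121457593), gave -2.73, -1.85 and -2.14 on the new-sorting, old-sorting and 44k K562 arrays, -1.47 and -1.32 with manual and -1.85 and -1.98 with automated handling. It was late on 7 of 7 arrays and called late in both lines, with a limma adjusted p of 0.000436 in K562 and 0.000231 in U2OS. Its window read -2.53 in K562 and -1.66 in U2OS. MRPS30, which sits in the large subunit despite its name (chr5:44810034-44813305), read -2.65, -1.55 and -2.37 on the same K562 arrays, -2.46 and -2.37 manually and -0.31 and -0.06 with automation. It was called late in both lines (limma adjusted p 0.00381 in K562 and 0.0176 in U2OS). MRPL39 read -2.39 ± 0.89 (SD, n = 3) for K562 and -0.10 ± 0.81 (SD, n = 4) for U2OS, and MRPL50 (chr9:104160009-104160067) -0.83 ± 0.37 (SD, n = 3) and -0.53 ± 0.66 (SD, n = 4).

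**Figure D2:**
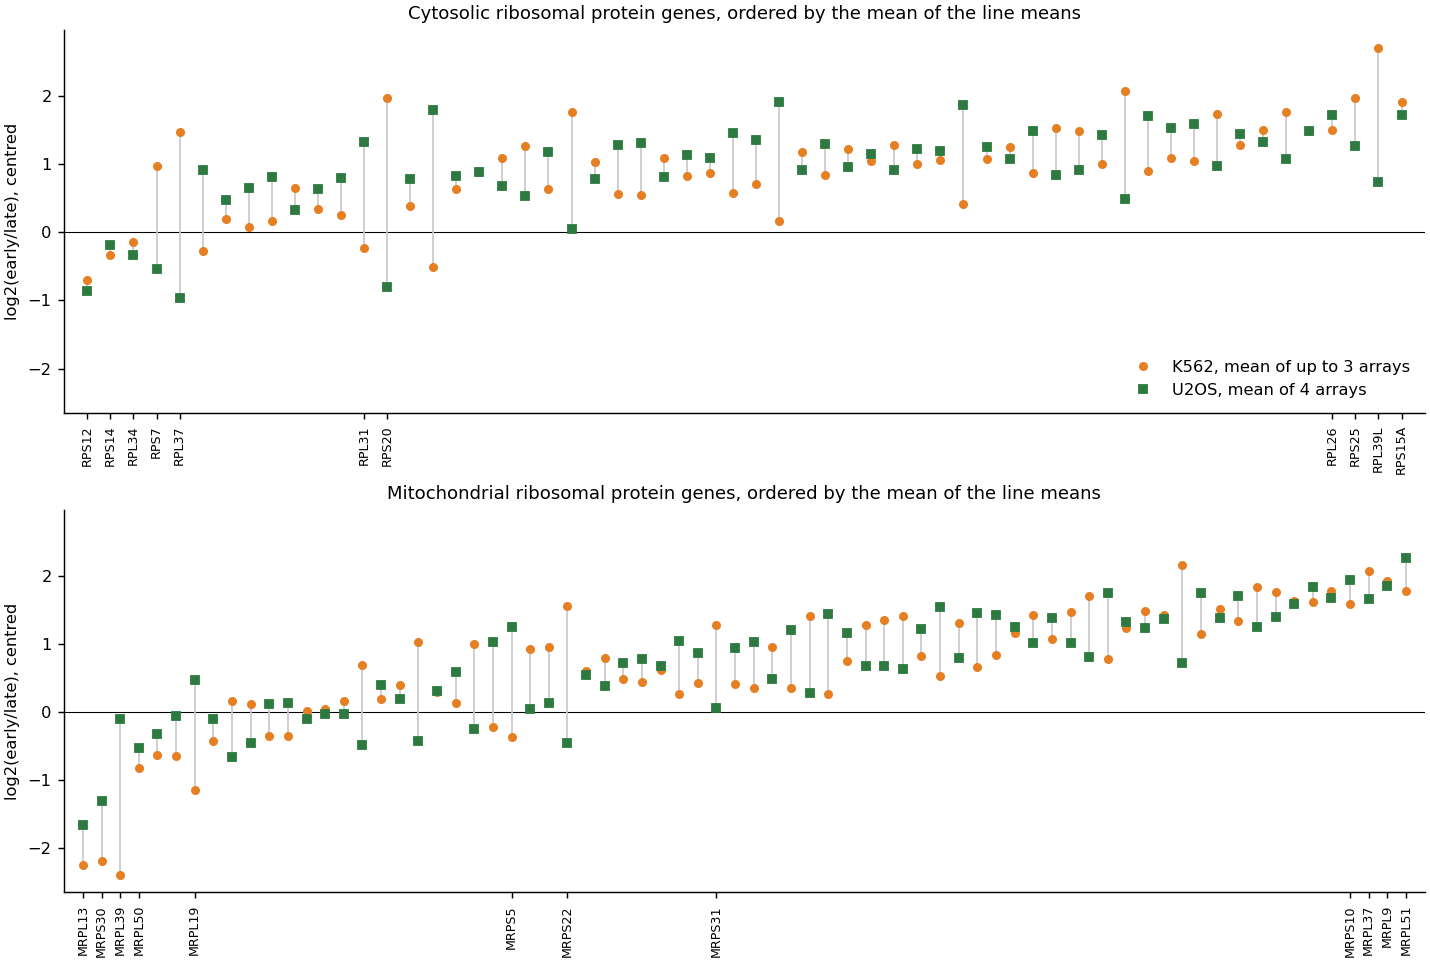
K562 means (orange circles, up to 3 arrays) and U2OS means (green squares, 4 arrays) of log2(early/late) for every tested member, ordered within each compartment by the mean of both line means, with names at the 4 lowest, the 4 highest and the members called between the lines. MRPL13 and MRPS30 lie lowest, and long grey links at RPS20, RPL37, MRPS22 and RPL39L mark members whose line means lie far apart.

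Read by windows, most members again lay in early DNA. The window was above 0 in both lines for 113 of 134 members (84.3%), 55 of 61 cytosolic and 58 of 73 mitochondrial, against 64.4% of all named genes with a window. RPS15A had too few probes for a window. The median window of cytosolic members read 0.86 in K562 and 1.08 in U2OS, and that of mitochondrial members 0.98 and 0.90. Over all named genes with a window it read 0.84 and 0.93. In K562 the cytosolic median thus lay close to that of all genes and below the mitochondrial one. In U2OS the mitochondrial median lay below that of all genes. The window was below 0 in both lines for 9 members (6.72%, against 20.2% of all genes), which were RPS12 and the mitochondrial MRPL3, MRPL13, MRPL39, MRPL50, MRPS14, MRPS17, MRPS30 and MRPS33. Gene and window means had opposite signs for 11 members in K562 and 13 in U2OS. The 134 members lay in 132 windows. MRPL46 and MRPS11 shared chr15:89000001-89100000, and RPL3L and RPS2 shared chr16:2000001-2100000, so these pairs are not separate readings. The window of a member held probes of a median of 4 named genes, against 3 for all genes.

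The early DNA extended past the genes. In U2OS the median window value around cytosolic members was 1.12 within 100 kb of the gene, 1.04 at 400 to 500 kb and 0.79 at 900 to 1000 kb, while around all genes it went from 0.93 to 0.71 and 0.48. Around mitochondrial members it went from 0.98 to 0.91 and 0.75. Over all members, the U2OS mean of probes within 100 kb exceeded that of probes at 900 to 1000 kb by 0.34. All genes fell as well, by the mean in U2OS from 0.43 to 0.21. Cytosolic members went from 0.95 to 0.50, and mitochondrial members from 0.73 to 0.49. In K562 the cytosolic medians were 0.96, 0.77 and 0.56 at these distances, the mitochondrial 0.97, 0.72 and 0.63, and those of all genes 0.85, 0.65 and 0.42. Both kinds of member lay above all genes at both ends of this range in both lines, and all 3 curves ended lower than they began. For mitochondrial members in U2OS the gap within 100 kb was small, at 0.98 against 0.93. The median of the windows that hold these genes lay on the other side, at 0.90 against 0.93.

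**Figure D3:**
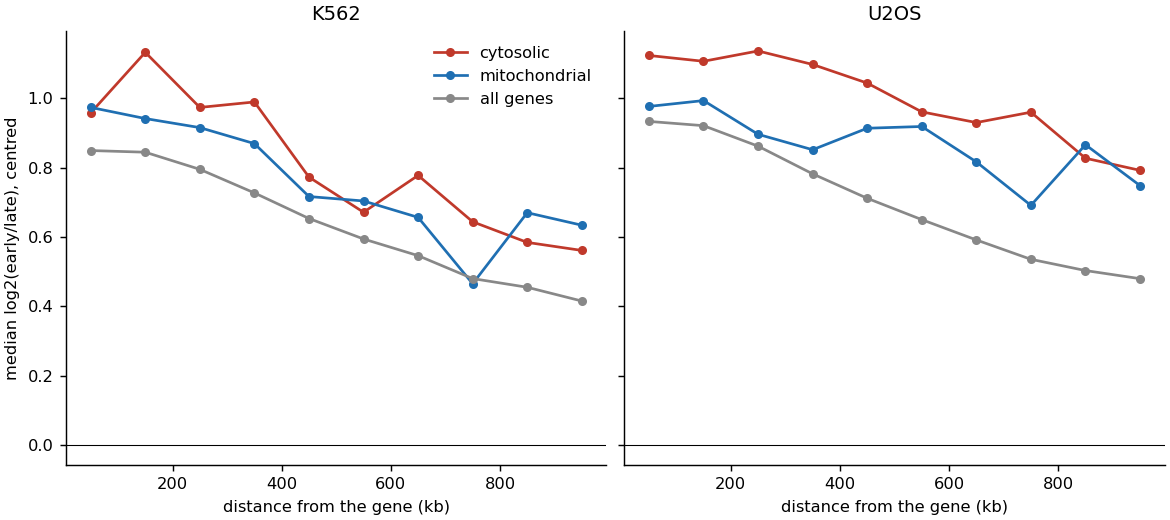
Median log2(early/late) of 100-kb steps against distance from the gene in kb, in K562 (left, 2 arrays) and U2OS (right, 4 arrays), for cytosolic members (red), mitochondrial members (blue) and all genes (grey). In U2OS the red curve starts at 1.12 and ends at 0.79, above the grey curve, which starts at 0.93 and ends at 0.48.

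Between the lines, 9 of the 130 members were called as replicating at different times, 5 earlier in K562 and 4 later (limma, adjusted p under 0.05 over all genes). Over all tested genes 13.1% were called, 5.88% earlier and 7.21% later in K562. The members' share did not exceed this background. RPS20, RPL37, RPL39L, MRPS22 and MRPS31 were earlier in K562, and RPL31, MRPL19, MRPL39 and MRPS5 were later there. The K562 and U2OS arrays did not overlap for 24 members (18.5%), against 28.4% of all genes. The count of called members was 5 without the new-sorting K562 array, 15 without manual U2OS array 2 and 17 without dim probes.

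RPS20, of the small subunit head (chr8:56986129-56986184), read 2.02, 1.67 and 2.23 on the new-sorting, old-sorting and 44k K562 arrays, and -1.38 and 0.45 with manual and -0.80 and -1.50 with automated handling. All K562 values were above all U2OS values, and manual array 2 stood above the other U2OS arrays. In K562 its late channel was well above background on 1 array, as was that of RPL37. The difference was 2.78 (SE 0.47, limma adjusted p 0.00471). In its window, which also holds probes of the Src family kinase gene LYN, the lines read 1.45 and -0.23, and 1.39 and -0.14 without the gene's own probe.

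RPL37, a large subunit protein that can bind the p53 regulator MDM2, read 1.94, 1.44 and 1.05 in K562 in the same order, and -1.72 and 0.26 with manual and -1.61 and -0.79 with automated handling. The lines did not overlap, and the difference of its probe, shown above, was 2.44 (SE 0.49, limma adjusted p 0.0108). The window, shared with CARD6, differed by 1.14 (SE 0.29, limma adjusted p 0.0242), less than the gene's probe.

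RPL39L is a copy of RPL39 found mostly in testis, whose protein lines the exit tunnel of the ribosome. It read 2.77, 2.08 and 3.28 in K562, and 0.37 and 0.08 with manual and 1.23 and 1.27 with automated handling. It was early in both lines, and earlier in K562 by 1.97 (SE 0.42, limma adjusted p 0.0136). Its probes differed by 2.01 and 1.74 between the lines, so both moved the same way.

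MRPS22, a mitochondrial small subunit protein in which mutations cause a respiratory chain deficiency, read 1.51, 1.11 and 2.06 in K562, and -0.64 and 0.34 with manual and -0.95 and -0.59 with automated handling. The difference was 2.02 (SE 0.39, limma adjusted p 0.00849). The window, with COPB2 beside it, read 1.42 in K562 and 0.04 ± 0.10 (SD, n = 4) in U2OS. MRPS31, read by 6 probes on the larger design (chr13:41303677-41345314), had the smallest difference of the 9 and the closest K562 arrays, at 1.18, 1.30 and 1.37, against 0.33 and 0.07 with manual and 0.11 and -0.29 with automated handling. It differed by 1.22 (SE 0.28, limma adjusted p 0.0200), and its 6 probes by 0.74 to 1.63.

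In the other direction, MRPL39, a mitochondrial large subunit gene, read -3.40, -2.08 and -1.70 in K562, and -0.47 and 1.10 with manual and -0.65 and -0.37 with automated handling. Its level moved from late in K562 to near the array median in U2OS, and the lines differed by -2.29 (SE 0.53, limma adjusted p 0.0198). The 3 probes shown above differed by -2.01, -3.35 and -2.46. The window, which holds the host gene of miR-155 as well, differed by -2.41 (SE 0.46, limma adjusted p 0.00816).

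MRPL19, also of the mitochondrial large subunit, read -1.61, -1.50 and -0.33 in K562, and 0.38 and 0.40 with manual and 0.27 and 0.87 with automated handling. Its difference was -1.62 (SE 0.38, limma adjusted p 0.0197), and that of its window -2.31 (SE 0.24, limma adjusted p 0.000946). MRPS5, a small subunit protein of mitochondria (chr2:95758185-95781611), read 0.16, -0.58 and -0.67 in K562, and 1.48 and 1.22 with manual and 1.67 and 0.61 with automated handling, a difference of -1.61 (SE 0.36, limma adjusted p 0.0176).

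RPL31, a large subunit protein at the exit of the nascent chain (chr2:101622097-101628026), read -0.36, -0.28 and -0.06 in K562, and 2.28 and 1.13 with manual and 1.13 and 0.76 with automated handling. It was close to the median probe in K562 and early in U2OS, and the lines differed by -1.56 (SE 0.39, limma adjusted p 0.0274). Its probes differed by -1.67 and -1.45. All 9 genes were also called in their window in the same direction. The window includes the gene's own probes, on arrays that also gave the gene calls, so this is not a separate test. In all 9 the probes of the window that belong to other names gave a difference of the same sign, which was not tested.

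**Figure D4:**
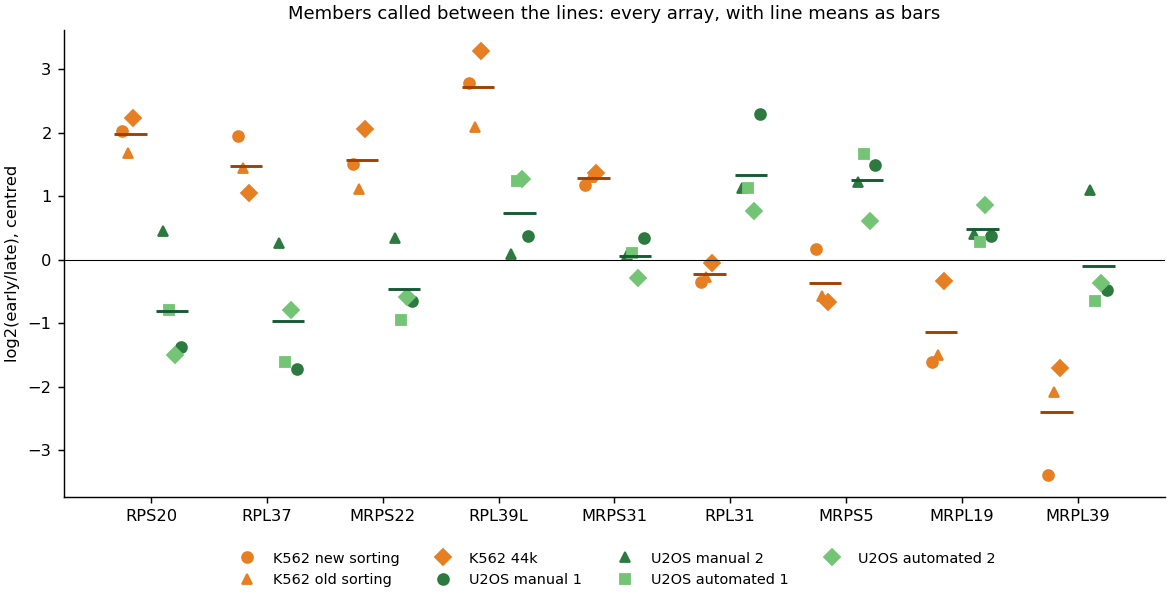
Log2(early/late) of the 9 members called between the lines on every array, K562 in orange and U2OS in green, with bars at the line means. All K562 points lie above all U2OS points at RPS20, RPL37, MRPS22, RPL39L and MRPS31, and below them at RPL31, MRPS5, MRPL19 and MRPL39.

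RPS20 and MRPS22 were called under each of the 17 alternatives run. Like RPL37, each was read by a single probe, so neither could enter the alternative with at least 2 probes per gene. Without the new-sorting K562 array, limma gave adjusted p of 0.0537 for RPL37, 0.0532 for RPL39L, 0.0753 for MRPL39, 0.0758 for MRPL19 and 0.0854 for RPL31. Without the old-sorting array it gave 0.0624 for MRPL19, 0.0540 for MRPS5 and 0.0668 for RPL31, and without the array labelled 44k it gave 0.0570 for MRPS5 and 0.0534 for RPL31. Without automated array 1 the limma adjusted p was 0.0565 for MRPS31, 0.0557 for MRPS5 and 0.0563 for RPL31, and without automated array 2 it was 0.0779 for MRPS31 and 0.0650 for MRPL19. With normexp background correction at offset 50 the limma adjusted p was 0.0802 for RPL39L, 0.118 for MRPS31 and 0.108 for MRPS5. With loess it was 0.158 for MRPS31, 0.0714 for MRPL19 and 0.123 for MRPS5. With slide as a random block it was 0.0609 for RPL31. No direction turned.

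**Figure D5:**
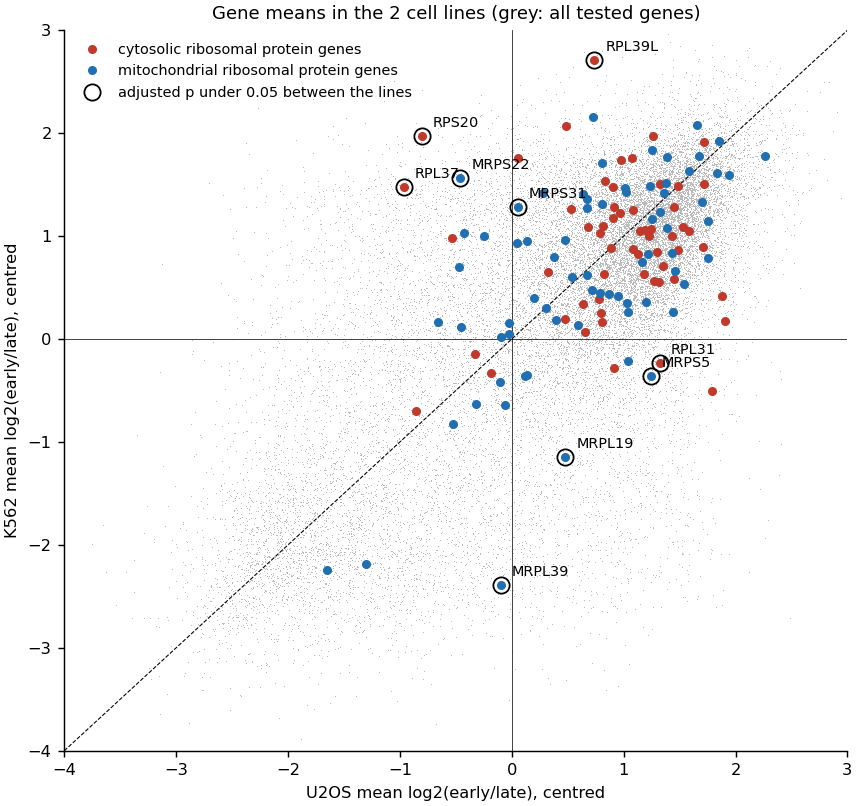
K562 mean against U2OS mean of log2(early/late) for cytosolic (red) and mitochondrial (blue) members over all tested genes (grey), with circles around the 9 members called between the lines and a dashed line of equality. Most members lie in the upper right quadrant, early in both lines, and RPS20, RPL37 and MRPL39 lie far from the dashed line.

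By windows, 16 members were called between the lines, 11 earlier and 5 later in K562, against 9.56% of all windows earlier and 12.4% later, while 17.8% of all named genes with a window lay in a called window. Beside the 9 genes, these were RPL14, RPL38, RPS7, RPS23, MRPL18 and MRPL22, earlier in K562, and RPL23A, later. The window of MRPL22 read 1.29 in K562 and -0.45 in U2OS and differed by 1.74 (SE 0.40, limma adjusted p 0.0172), and that of RPS23 1.53 and -0.06, a difference of 1.59 (SE 0.33, limma adjusted p 0.0112). The own probe of MRPL18 read 0.02 and -0.10 in the lines, while its window read 1.27 and 0.28. The count of 16 was 10 without manual array 1, 8 without automated array 1, 9 without automated array 2 and 2 with normexp at offset 50.

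Some members have known disease roles. Mutations of RPS19, RPL5, RPL11 and other cytosolic members cause Diamond-Blackfan anaemia, and loss of RPS14 marks the 5q- syndrome. Of 13 such genes tested, 11 were called early in U2OS, against 54.6% of all genes, and 8 in K562, against 43.8%, and 0 were called late. Between the lines limma called 0 of them, with 2 of 13 at an unadjusted p under 0.05, against 26.4% of all genes. RPS19, the gene most often affected, read 0.90 ± 0.49 (SD, n = 3) for K562 and 1.71 ± 0.26 (SD, n = 4) for U2OS, with no overlap of the arrays and a limma adjusted p of 0.149. RPL5 read 1.10 ± 0.61 (SD, n = 3) and 0.82 ± 0.55 (SD, n = 4), and RPL11 1.29 ± 0.88 (SD, n = 3) and 0.91 ± 0.45 (SD, n = 4). Both bind 5S ribosomal RNA and MDM2.

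The other paralogs are given with their parents. RPL3L, the form of striated muscle, read 0.07 ± 0.51 (SD, n = 3) for K562 and 0.65 ± 0.86 (SD, n = 4) for U2OS, and its parent RPL3 read 0.20 ± 0.79 (SD, n = 3) and 0.48 ± 0.67 (SD, n = 4). RPS27L read 1.25 ± 0.47 (SD, n = 3) and 1.08 ± 0.36 (SD, n = 4), and RPS27 0.55 ± 0.70 (SD, n = 3) and 1.31 ± 1.12 (SD, n = 4). Each copy lay within the SDs of its parent in U2OS. The K562 values of RPS27 and RPS27L are uncertain in size, since their late channel was never well above background there.

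Other genes of translation, from lists written by name, were read in the same fit, in which 43.8% of all genes were called early in K562 and 54.6% in U2OS, and 5.88% earlier and 7.21% later in K562 than in U2OS. Among 44 cytosolic translation factors, 25 were called early in K562 and 33 in U2OS, and 1 was earlier and 1 later in K562 than in U2OS. The later factor was EIF3F, a subunit of the initiation factor that binds the small subunit, at -2.17 ± 0.57 (SD, n = 3) for K562 and 0.97 ± 0.34 (SD, n = 4) for U2OS. Of 20 cytosolic tRNA synthetases, 12 were called early in K562 and 16 in U2OS. Among them 2 were earlier and 2 later in K562, and the threonine enzyme gene TARS had the largest of these differences, -3.10 (SE 0.32, limma adjusted p 0.000881). Of 22 mitochondrial translation factors, 8 were called early in K562 and 14 in U2OS, and 0 were earlier and 2 later in K562. Of 17 mitochondrial synthetases, 11 were called early in K562 and 9 in U2OS. Of these 17, 3 were earlier in K562 and 0 later. The isoleucine enzyme gene IARS2 was among the earlier ones, by 2.58 (SE 0.32, limma adjusted p 0.00139). Of 81 ribosome assembly factors, 47 were called early in K562 and 59 in U2OS, and 5 were earlier and 4 later in K562. Of 14 ribosomal protein genes outside the naming rule, such as RPLP0 and RPSA, 7 were called early in K562 and 13 in U2OS. Between the lines limma called 0 of the 14, with 4 at an unadjusted p under 0.05, against 26.4% of all genes.

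Manual and automated handling were compared in U2OS. limma called 0 members and 0 of 23722 genes, with 28 of 130 members at an unadjusted p under 0.05, against 19.3% of all genes. With 2 arrays per method, 0 calls do not show that the methods gave the same values. The arrays of the methods did not overlap for 59 members (45.4%), against 54.0% of all genes. With normexp at offset 50, 49 members and 8553 genes were called, so this count depends on the background correction. Some of the differences of the highest size are given as values. MRPS30 read -2.42 manually and -0.19 with automation, a difference of 2.23 (SE 0.27, limma adjusted p 0.143), while its window read -1.81 and -2.04 manually and -1.99 and -1.92 with automation, with no such change. MRPS34 differed by 2.01, and RPL35 by -1.86, MRPL15 by -1.83 and RPL34 by -1.82 (limma adjusted p 0.147 to 0.161 for these 4 genes). The windows of RPL35, MRPL15 and RPL34 were also lower on both automated arrays than on both manual arrays.

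New and old cell sorting had 1 K562 array each, so the difference has no replicate check. The median over members was 0.44 (new minus old), against 0.10 over all genes, and 37 of 130 members (28.5%) differed by more than 1 log2 unit in either direction, against 23.1% of all genes. Values of opposite sign were read for 26 of the 130 members, against 13.0% of all genes. RPL23A, near the exit of the nascent chain, read 1.49 with new and -0.96 with old sorting, RPS27A, made as a fusion with ubiquitin, 2.39 and 0.26, and MRPS14 0.79 and -1.37. In the other direction RPS2 read -0.46 and 1.17, MRPL39 -3.40 and -2.08, and RPL27A 0.42 and 1.64. Neither channel of RPS2 was well above background on any K562 array, so its values there have no firm order, and the late channel of RPL23A and RPS27A was not either. The median difference over members turned to -0.08 without dim probes, and was 0.60 with normexp at offset 50 and 0.82 with centring on the mean.

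The array labelled 44k was set against the new-sorting array for the 124 members on both. The median difference (44k minus new sorting) was -0.26, against -0.11 over all shared genes, and 19 members (15.3%) had opposite signs, against 16.5% of all genes. Pearson's r across these members was 0.64 with the new-sorting and 0.42 with the old-sorting array, and across all shared genes 0.79 and 0.61. On the array labelled 44k the late signal of 70.1% of cytosolic and 55.6% of mitochondrial member probes was a substitute value set by the scanner software for a signal at background, so most ratios there are bounds. The median difference over members was 0.10 without dim probes and 0.07 with every array scaled to the same median absolute deviation (MAD), and in the other direction -0.50 with centring on the mean and -0.88 with loess.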

How the data were processed

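Replication timing was read from 7 two-colour Agilent arrays, grouped by their titles. Per the file headers, the deposited intensity values came from Agilent Feature Extraction 11.5.1.1, run with a protocol for comparative genomic hybridization, on genome build hg19. The processed intensity of each channel had been background-subtracted and dye-normalized, and the mean and local background intensity were raw, per the file headers. The submitters' processing notes name version 9.1 of that software. The deposited log10 ratio is that of late over early processed signals, per the file headers.

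Here log2(early/late) was taken from the processed signals, with normexp, which can take signal for background, as an alternative. Control spots and spots marked non-uniform, outlying or manually excluded were dropped, and saturated spots were kept. Arrays were centred on their median over chromosomes 1 to 22 and X. Repeated probes, then probes of a gene, were averaged, and 100-kb windows needed at least 3 probes on each of the 6 larger arrays. Tests used limma 3.58.1 in R 4.3.3 (lmFit, eBayes) over all named autosomal genes or windows, with Benjamini-Hochberg adjusted p under 0.05. Manual and automated handling were fitted on the 4 U2OS arrays. The steps were tested on simulated data. Number of arrays limits the precision.

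Named genes were, by rule, the 4 highest and 4 lowest per compartment, members called between the lines, the largest differences between methods, the paralogs, disease genes and members whose gene and window differ in sign, of which examples are given. Some genes that the rule names are not reported here. The members and lists were chosen with earlier results of these data known. The 2 shared replicate numbers of the manual and automated arrays did not pair them (correlation of same-numbered deviations 0.02). Alternatives were normexp at offsets 0 and 50, loess, the deposited log ratio, other spot, dim-probe and probe-number filters, other centring, scaling and windows, blocks and leaving out each array. Window values without the gene's own probes were added after seeing the data. Figures were drawn with matplotlib 3.10.9.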

Additional observations from a re-analysis of the deposited data

Results flagged for a closer look

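Dixon's test for a single deviating array (95% level) was applied across the 4 U2OS arrays to 61 values, the named genes and 3 medians. It marked 5 of them, where chance gives about 1 in 20. Many of the named genes were picked by their values on these same arrays, so that rate need not hold for them. MRPL39 read 1.10 on manual array 2 against -0.65 to -0.37 on the others. MRPL4 read -1.25 on manual array 1 against 0.19 to 0.40, and RPL5 read 0.0074 on the same array against 1.01 to 1.18. RPL23A read 2.45 on automated array 2 against 1.71 to 1.77. RPS7 read -1.69 on automated array 1 against -0.26 to -0.05. These arrays were of both methods.

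The limma contrast of K562 and U2OS passed adjusted p under 0.05 for 9 members, with differences (K562 minus U2OS) of 2.78 at RPS20, 2.44 at RPL37, 2.02 at MRPS22, 1.97 at RPL39L, 1.22 at MRPS31, -1.56 at RPL31, -1.61 at MRPS5, -1.62 at MRPL19 and -2.29 at MRPL39. Their array values are in the results above.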

How the results depend on the processing

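Of 309 values under alternatives that answer a comparison, 269 stayed within a set limit, 37 moved and 3 changed sign. The cause was not tested. The limit was 1.5 times for a count, and for a compartment median the SD of its array medians. The new minus old, 44k minus new and distance differences had no spread of their own. They were held to 0.0995, the SD of the mitochondrial U2OS array medians. Of 159 values under alternatives for the 9 called genes, 0 changed direction and 22 lost the call, as given above. With normexp at offset 50 the medians in K562 and U2OS were 0.61 and 0.61 (cytosolic) and 0.42 and 0.48 (mitochondrial), 2370 windows and 2 members' windows differed between the lines, 8553 genes and 49 members differed between methods, the new minus old median was 0.60, and the U2OS mean around members was higher within 100 kb than at 900 to 1000 kb by 0.19 instead of 0.34. Without dim probes the U2OS medians were 0.77 and 0.59, 54 members were early in U2OS, 17 members differed between the lines, and the new minus old and 44k minus new medians were -0.0834 and 0.103. With loess these 2 medians were 0.25 and -0.88, scaled to the same MAD 0.20 and 0.0677, centred on the mean 0.82 and -0.50 (mitochondrial U2OS median 0.91), and with at least 2 probes per gene 0.28 and -0.087, where 25 members were early in K562 and 27 in U2OS. In 250-kb windows 2425 differed. Leaving out each array in turn gave a mitochondrial U2OS median of 0.65 to 0.83 (lowest without manual array 2), 9471 to 15093 genes early or late in K562 and 36 to 72 members early there, 1930 to 2888 genes and 5 to 15 members differing between the lines, 3403 to 7668 windows (highest without the old-sorting array) and 8 to 17 members' windows. The lowest counts of genes came without the new-sorting array, and 2046 and 1956 genes differed without automated arrays 1 and 2. The pairing of manual and automated arrays by number was not supported, and the replicate block gave 0 called genes and 0 called members, as without it. The slide correlation of 0.436 rests on the only slide with 2 arrays, that of manual U2OS. Signal over background limits the late channel of the array labelled 44k, where 8.83% of probes were well above background.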

Other observations

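X-linked ribosomal protein genes entered no test. RPL10 (2 probes) read -0.03 ± 0.999 (SD, n = 3) for K562 and 0.68 ± 0.40 (SD, n = 4) for U2OS, and RPL36A -0.03 ± 0.32 (SD, n = 3) and 0.87 ± 0.93 (SD, n = 4). RPS4X read 0.72 ± 0.94 (SD, n = 3) and 1.11 ± 0.42 (SD, n = 4). RPL39, the parent of RPL39L, read 1.40 ± 1.35 (SD, n = 3) and 0.48 ± 0.48 (SD, n = 4), with the lowest K562 array at the array median and the highest at 2.70.

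By chromosome, the 11 tested members of chromosome 11 had medians of 1.42 in K562 and 1.20 in U2OS, against 0.63 and 0.91 over all tested genes there. The 5 members of chromosome 4 had 0.93 and 0.67, against -0.45 and -0.26. The 13 members of chromosome 17 had 0.66 and 1.09, against 0.83 and 1.19. Lower medians than all genes in both lines were also read for the 4 members of chromosome 7, at 0.46 and -0.06 against 0.69 and 0.50. The 12 members of chromosome 2 had 0.52 and 0.79, against 0.71 and 0.80. The 2 of chromosome 22 had 0.78 and 0.58, against 0.85 and 1.24. The 2 of chromosome 21 had -0.49 and 0.27, against 0.61 and 0.61, and the 1 member of chromosome 20 had -0.35 and 0.13, against 0.87 and 1.07.

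Some members had a negative gene value in K562 inside a window that was positive there, and positive gene and window values in U2OS. MRPS26 (1 probe) read -0.35 in K562 and 0.13 in U2OS, and its window 0.77 and 1.35. MRPL45 read -0.22 and 1.04, and its window 1.02 and 1.20.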
